A study of Rattus norvegicus with 6 samples.

Results

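The slow and fast isoforms of the troponins, the myozenins and the tropomyosins were examined in rat gastrocnemius, a calf muscle made mostly of fast fibres with a smaller share of slow fibres. The members were the 10 genes Tnnc1, Tnni1, Tnnt1, Myoz2 and Tpm3, taken as slow, and Tnnc2, Tnni2, Tnnt3, Myoz1 and Tpm1, taken as fast. They were found by their symbol in the platform annotation. Each symbol had 1 row in the deposited table, and the 10 rows were 10 of 14506 named genes.

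RNA came from male Sprague-Dawley rats that were obese from their diet, began the test diets at 12 weeks of age and were 20 weeks old after 8 weeks on them. All diets were rich in fat and sucrose, held 4.6 kcal per gram and drew 10% of their energy from protein. In the leucine group casein supplied 7.1% of the energy and added leucine 2.9%, in the dairy group the protein came from skim milk powder, and in the casein group, the control, it was casein. There were 2 Affymetrix Rat Gene 1.0 ST arrays per diet, 6 in all, while the design text gives 4 rats per diet. The labels do not tie arrays to single animals, so a p here covers only the spread between these arrays, which may be technical. The labels name gastrocnemius for every array, while the protocol texts also name liver in the storage and extraction steps. The deposited values are log2 signals, on which a difference of 1 is a 2-fold difference, and their median per array lay between 3.46 and 3.56.

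Muscle contraction is switched on by calcium at the thin filament. Troponin C binds the calcium, troponin I holds the filament off until then, and troponin T ties the complex to tropomyosin, which lies along actin and uncovers its myosin-binding sites when the complex moves. Slow and fast fibres use different genes for each subunit, so the isoforms are widely used to describe the fibre makeup of a muscle. Myozenins, also called calsarcins, are proteins of the Z-disc, the plate that anchors the thin filaments. They bind alpha-actinin and the phosphatase calcineurin, which favours the slow programme. Myoz1 is the myozenin of fast fibres, and Myoz2 that of slow fibres and the heart. Tpm3 gives the slow alpha-tropomyosin and Tpm1 the fast one, and both also make tropomyosins of other cells. Each gene had a single value per array, so transcripts of 1 gene were not told apart.

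Promoter windows are shown for Tnni1, Tnnt1 and Myoz2, 3 slow genes that were low together on 1 array, and for Tnni2 and Myoz1, the fast partners of Tnni1 and Myoz2, which were not. The windows run from 250 bases before to 50 bases after the start of the gene in RefSeq. They were given for 8 of the 10 genes, 4 slow and 4 fast, and Tpm3 had 3 of them. Capitals mark E-boxes, the motif CANNTG read by the MyoD family, and a motif of the MEF2 type, which is CTA, then any 4 bases, then TAG. Each motif reads the same on either strand, and in these windows the matches do not overlap.
Tnni1 (GRCr8 chr13:49781279-49781578, + strand): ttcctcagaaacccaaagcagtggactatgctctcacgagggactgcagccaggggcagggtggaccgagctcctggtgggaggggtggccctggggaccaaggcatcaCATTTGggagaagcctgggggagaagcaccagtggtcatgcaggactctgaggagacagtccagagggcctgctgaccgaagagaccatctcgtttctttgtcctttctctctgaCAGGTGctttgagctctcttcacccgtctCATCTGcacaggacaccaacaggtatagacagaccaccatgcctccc
Tnnt1 (GRCr8 chr1:78348785-78349084, + strand): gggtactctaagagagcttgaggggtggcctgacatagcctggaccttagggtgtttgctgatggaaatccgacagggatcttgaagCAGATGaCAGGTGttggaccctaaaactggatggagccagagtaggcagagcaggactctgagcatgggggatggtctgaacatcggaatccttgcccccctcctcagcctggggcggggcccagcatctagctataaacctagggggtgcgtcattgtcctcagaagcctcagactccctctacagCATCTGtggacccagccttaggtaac
Myoz2 (GRCr8 chr2:213852729-213853028, - strand): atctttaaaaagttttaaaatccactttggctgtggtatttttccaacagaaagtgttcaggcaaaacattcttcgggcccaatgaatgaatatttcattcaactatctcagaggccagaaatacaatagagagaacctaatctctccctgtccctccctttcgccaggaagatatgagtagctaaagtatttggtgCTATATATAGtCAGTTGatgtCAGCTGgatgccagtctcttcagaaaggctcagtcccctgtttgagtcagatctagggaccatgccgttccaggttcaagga
Tnni2 (GRCr8 chr1:207024240-207024539, + strand): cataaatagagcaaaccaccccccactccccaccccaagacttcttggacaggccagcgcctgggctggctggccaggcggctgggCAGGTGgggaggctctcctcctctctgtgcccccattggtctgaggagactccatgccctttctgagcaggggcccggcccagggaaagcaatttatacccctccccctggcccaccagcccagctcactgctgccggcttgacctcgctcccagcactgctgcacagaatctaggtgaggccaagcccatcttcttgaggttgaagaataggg
Myoz1 (GRCr8 chr15:3693363-3693662, + strand): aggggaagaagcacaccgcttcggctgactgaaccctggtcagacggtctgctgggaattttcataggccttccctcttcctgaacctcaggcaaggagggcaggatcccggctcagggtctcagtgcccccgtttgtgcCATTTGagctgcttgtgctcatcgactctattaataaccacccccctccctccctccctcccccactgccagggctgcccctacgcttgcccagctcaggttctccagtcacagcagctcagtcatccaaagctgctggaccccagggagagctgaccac
An E-box was present in windows of all 4 slow and all 4 fast genes, and in 72.1% of the 33469 RefSeq windows of this length. MEF2 motifs that end in TAA, as in ctattaataa of the Myoz1 window, were not searched, marked or counted. The MEF2-type form with TAG was present in Myoz2 alone among the 8, and in 3.84% of all windows. It began 53 bases before the start. In Myoz2 it lay next to E-boxes that begin 42 and 32 bases before the start. These matches describe the letters and are not known sites.

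Casein array 2 stood apart from the other 5 arrays, and it is 1 of the 2 control arrays. Its mean correlation with the other arrays over all genes was 0.974, against 0.985 to 0.988 for the others. On it 64 genes lay over 2-fold below every other array and 177 over 2-fold above. On each of the other arrays 0 to 4 genes lay over 2-fold below all others and 0 to 17 over 2-fold above. The log2 fold changes of named genes against casein are therefore given with and without this array. The comparisons of leucine with casein and of dairy with casein share the casein arrays and are not independent of each other.

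The slow genes gave the widest differences between arrays. Tnnc1, the troponin C of slow fibres and heart (transcript cluster 10786640), stood at 10.11 and 10.28 on the leucine arrays, 9.76 and 9.60 on the dairy arrays, and 10.53 and 4.46 on the casein arrays. Casein array 2 was low, 35.1-fold below the lowest of the other arrays, while casein array 1 was the highest of the 6. In this bulk tissue fewer slow fibres and less of these transcripts per fibre cannot be told apart. Tnni1, the slow troponin I (10764233), stood at 9.75 and 10.19 with leucine, 9.60 and 9.62 with dairy, and 10.02 and 5.44 with casein. Tnnt1, the slow troponin T (10704071), stood at 10.37 and 10.49 with leucine, 10.14 and 10.38 with dairy, and 10.61 and 5.90 with casein. On casein array 2 these genes lay 17.8-fold and 19.0-fold below the lowest other array, and the other 5 arrays spanned 0.59 for Tnni1 and 0.46 for Tnnt1.

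Myoz2 (10826534) stood at 9.53 and 10.31 on the leucine arrays, 8.84 and 9.05 on the dairy arrays, and 8.76 and 5.59 on the casein arrays. It was 9.06-fold below the lowest other array on casein array 2. Both leucine arrays lay above both dairy arrays, and these above both casein arrays. Myoz2 was the only 1 of the 5 slow genes with no overlap between any of the diets, a pattern not counted over all genes. Tpm3 (10816886) stood at 9.82 and 9.96 with leucine, 9.82 on both dairy arrays, and 9.85 and 7.75 with casein. Its drop on casein array 2 was the smallest of the slow genes, 4.20-fold, and the other 5 arrays spanned 0.14.

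**Figure D1:**
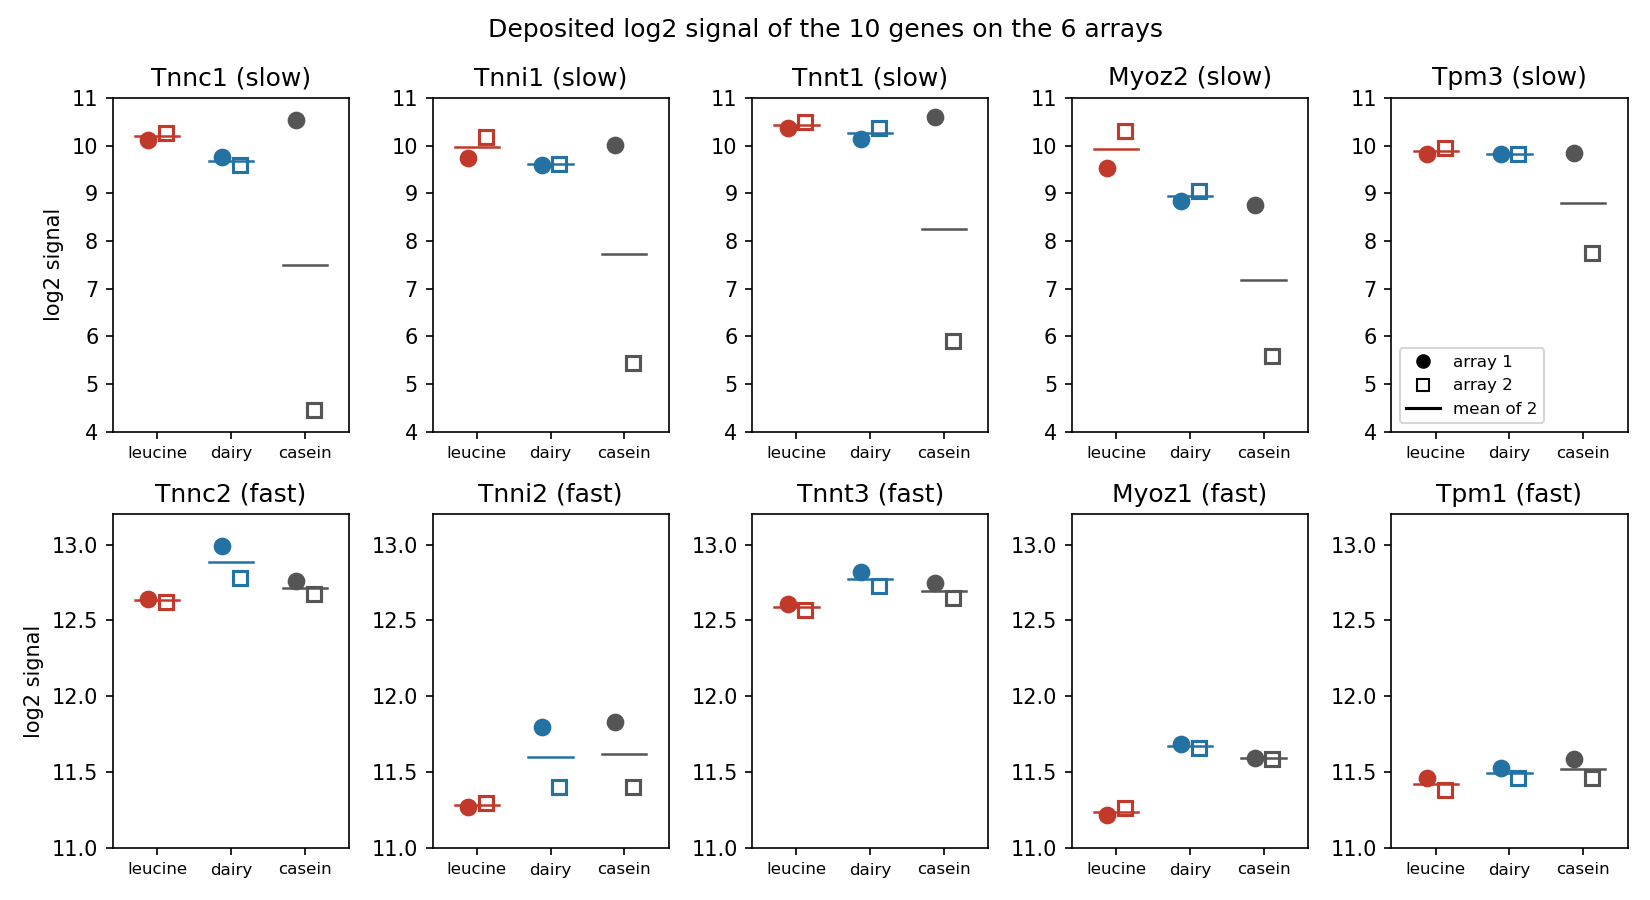
Deposited log2 signal of each gene, with the slow genes in the upper row and the fast genes in the lower row. Filled circles are array 1, open squares array 2 and lines the mean of the 2 arrays of a diet. The axes differ between the rows. Casein array 2 lies far below the other arrays in the upper row, between 4.46 and 7.75, and within the range of the others in the lower row.

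All 5 slow genes were lowest on casein array 2, as were 22.1% of all genes, and all 5 were among the 64 genes over 2-fold below the other arrays. When all 14506 genes were ordered by their distance below the other arrays on casein array 2, Tnnc1 ranked 1, Tnnt1 ranked 3, Tnni1 ranked 4, Myoz2 ranked 5 and Tpm3 ranked 14. Rank 2 was Myh7, the slow myosin heavy chain. None of the 5 fast genes was lowest or highest on that array. The order is a description of these arrays, with no test.

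The genes most like the slow ones were sought among all other named genes. Each gene was centred on its own mean, and the root mean square distance to the mean profile of the 5 slow genes over the 6 arrays was taken. The nearest was Ldhb, the lactate dehydrogenase subunit of oxidative muscle and heart, at a distance of 0.27 on the log2 scale. Next came Myh2, the myosin of fast oxidative fibres, at 0.29, the slow myosin light chain Myl3 at 0.38 and Myh7 at 0.40. Myl2, Ankrd2, Casq2 and the slow calcium pump Atp2a2 followed at 0.47 to 0.60. The slow genes themselves lay 0.14 (Tnni1) to 0.75 (Tpm3) from their own mean. The likeness changed when casein array 2 was left out. Over the other 5 arrays Ldhb ranked 140 and Myh2 ranked 1714 of 14496 genes, and the other 6 ranked between 7661 and 13808.

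The fast genes varied little. Tnnc2, the fast troponin C (10851650), stood at 12.64 and 12.62 with leucine, 12.99 and 12.78 with dairy, and 12.76 and 12.67 with casein. Both leucine arrays were the lowest and both dairy arrays the highest, with no overlap, a pattern not counted over all genes. Tnnt3, the fast troponin T (10712490), stood at 12.61 and 12.57 with leucine, 12.82 and 12.72 with dairy, and 12.75 and 12.65 with casein. The leucine arrays were again the lowest, while dairy and casein overlapped. Tnni2, the fast troponin I (10712471), stood at 11.27 and 11.30 with leucine, 11.80 and 11.40 with dairy, and 11.83 and 11.40 with casein. Its leucine arrays lay below all others, and dairy and casein each had 1 array at 11.40. The mean levels of the 5 fast genes were 11.48 to 12.75, at percentiles 99.76 to 99.96 of all genes. The highest value in the table was 13.69, and whether signals were compressed at these levels was not tested.

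Myoz1 (10779074) stood at 11.22 and 11.26 on the leucine arrays, 11.69 and 11.66 on the dairy arrays, and 11.60 and 11.59 on the casein arrays. The 3 diets did not overlap, a pattern not counted over all genes, and the 2 arrays of a diet differed by at most 0.04. Tpm1 (10918392) stood at 11.46 and 11.38 with leucine, 11.53 and 11.46 with dairy, and 11.58 and 11.46 with casein. Leucine array 1, dairy array 2 and casein array 2 held the same value, and leucine met the other diets only there. Dairy and casein overlapped, and the whole range was 0.20. The widest range of a fast gene over the 6 arrays was 0.56, in Tnni2, against 2.21 to 6.07 for the slow genes, or 0.14 to 1.55 without casein array 2.

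The first comparison asked what leucine in place of part of the casein changed. The 5 slow genes had means above those of casein and the 5 fast genes means below them. By limma, fitted over all genes and adjusted by Benjamini-Hochberg, 0 of the 10 passed an adjusted p of 0.05, and 0% of all genes did. The lowest adjusted p among the 10 was 0.353, in Myoz1. This was also the lowest of all genes, but as a tie, shared for example by Actc1, the cardiac alpha-actin. By unadjusted limma p Myoz1 ranked 103 among all genes and Actc1 ranked 49. At an unadjusted p under 0.05 stood 1 of the 10, Myoz1, beside 9.61% of all genes. Myoz1 averaged 11.24 ± 0.03 with leucine, against 11.59 ± 0.01 with casein (n = 2 each, SD). Its log2 fold change was -0.35 ± 0.06 (SE), 1.28-fold lower, with an unadjusted limma p of 0.00268 and a 95% interval from -0.51 to -0.20. It was -0.36 without casein array 2.

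The other fast genes had smaller or less certain log2 fold changes of leucine against casein. Tnni2 stood at -0.33 ± 0.21, Tnnt3 at -0.11 ± 0.07, Tpm1 at -0.10 ± 0.08 and Tnnc2 at -0.08 ± 0.10. With casein array 2 left out these were -0.55, -0.16, -0.17 and -0.13 in the same order. All 5 were below 0, as were 50% of all genes. The arrays lay apart with leucine below casein in 4 of the 5, all but Tpm1, against 15.6% of all genes. The median of the 5 was -0.11, against 0 over all genes. The median was -0.14 after quantile normalization and -0.04 after each array was centred on its median, with all 5 below 0 under both. Leaving out casein array 2 gave a median of -0.17, and leaving out casein array 1 gave -0.06.

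For the slow genes the log2 fold changes of leucine against casein ran from 1.09 ± 0.72 in Tpm3 to 2.75 ± 1.11 in Myoz2, with a median of 2.24. Tnnc1 averaged 10.19 ± 0.12 with leucine, against 7.50 ± 4.29 with casein (n = 2 each, SD), and its log2 fold change was 2.69 ± 2.06. Its adjusted limma p was 0.683, and its 95% interval ran from -2.85 to 8.24. All 5 were above 0, as were 49.1% of all genes, and the arrays lay apart with leucine above casein in Myoz2 only, against 15.9% of all genes. With casein array 2 left out, Tnnc1 stood at -0.34 ± 0.13, Tnnt1 at -0.18 ± 0.14 and Tnni1 at -0.05 ± 0.23. Tpm3 then stood at 0.04 ± 0.08 and Myoz2 at 1.16 ± 0.41, 2.23-fold higher with leucine, with an adjusted p of 0.419. The median was -0.05, with 2 of the 5 above 0 and 3 below, beside 47.4% and 51.5% of all genes. Both leucine arrays lay above casein array 1 in Myoz2 only, against 30.1% of all genes, and below it in Tnnc1 and Tnnt1, against 31.4%. Myoz2 alone of the 5 was over 2-fold higher without casein array 2, beside 0.503% of all genes. With casein array 2 as the lone control array, assumed to vary like the other diets, the median was 4.52.

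**Figure D2:**
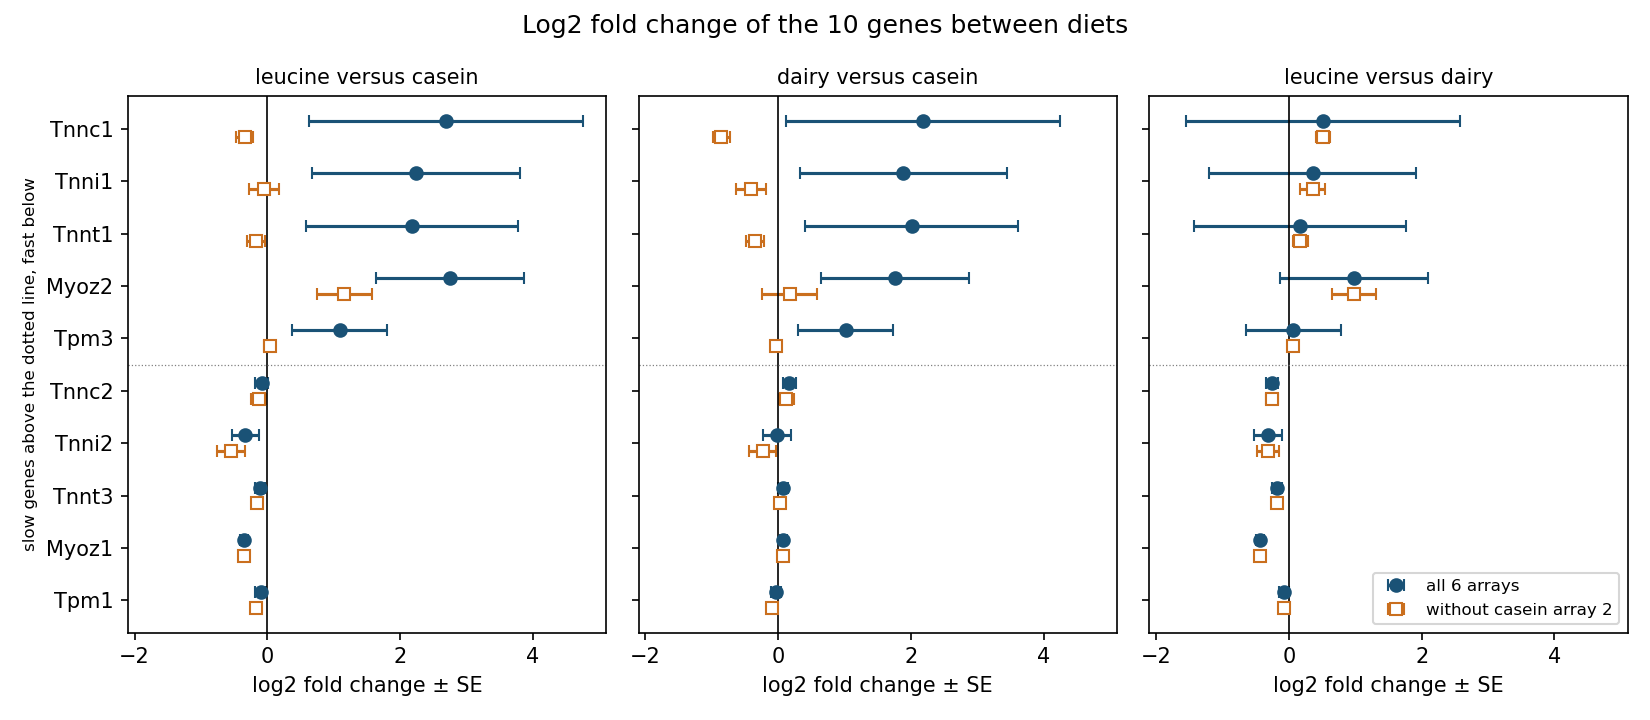
Log2 fold change (horizontal axis) of each gene in the 3 comparisons, with the SE of the limma model as bars. Filled circles use all 6 arrays and open squares leave out casein array 2. The slow genes, above the dotted line, move from values over 1 to values near or below 0 in both comparisons with casein, apart from Myoz2 at 1.16 with leucine. The fast genes, below the line, move less.

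The second comparison asked what dairy protein in place of casein changed. By limma 0 of the 10 genes passed the adjusted p, as did 0% of all genes, and 0 had an unadjusted p under 0.05, beside 4.8% of all genes. The log2 fold changes of the slow genes ran from 1.02 ± 0.72 in Tpm3 to 2.18 ± 2.06 in Tnnc1, with a median of 1.88. All 5 were above 0, as were 51.2% of all genes. When casein array 2 was left out the slow median was -0.35, with 1 of the 5 above 0 and 4 below, beside 47.9% and 49.4% of all genes. Those 4 lay below casein array 1 on both dairy arrays, against 26.7% of all genes. Tnnc1 then stood at -0.86 ± 0.13, 1.81-fold lower than on casein array 1, with an unadjusted p of 0.00706 and an adjusted limma p of 0.362. Tnni1 stood at -0.40 ± 0.23, Tnnt1 at -0.35 ± 0.14 and Tpm3 at -0.03 ± 0.08. Myoz2 stood at 0.18 ± 0.41, with both dairy arrays above casein array 1, as in 28.4% of all genes.

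The fast genes lay close to casein with dairy. Tnnc2 stood at 0.17 ± 0.10, Myoz1 at 0.08 ± 0.06 and Tnnt3 at 0.08 ± 0.07, and quantile normalization turned Myoz1 and Tnnt3 to -0.04 each. Tpm1 stood at -0.03 ± 0.08 and Tnni2 at -0.02 ± 0.21, and median centring turned them to 0.02 and 0.03. With casein array 2 left out Tnnc2 stood at 0.13, Myoz1 at 0.08, Tnnt3 at 0.03, Tpm1 at -0.09 and Tnni2 at -0.23. In all, 3 of the 5 were above 0 and 2 below, beside 51.2% and 47.6% of all genes. The median of the 5 was 0.08, against 0.00 over all genes, or -0.04 after quantile normalization. The arrays lay apart with dairy above casein in 3 of the 10 genes, Myoz2, Tnnc2 and Myoz1, against 11.5% of all genes.

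Leucine and dairy were then compared with each other, a comparison that uses no casein array for its means. The slow genes were higher with leucine in 5 of 5 and the fast genes lower in 5 of 5, while 49% of all genes were higher and 49% lower. By limma 0 of the 10 passed the adjusted p, and 0% of all genes did. An unadjusted p under 0.05 was reached by Myoz1, 1 of the 10, beside 5.7% of all genes. Myoz1 averaged 11.24 ± 0.03 with leucine, against 11.67 ± 0.02 with dairy (n = 2 each, SD). The log2 fold change was -0.43 ± 0.06, or 1.35-fold lower. Its unadjusted limma p was 0.00116, its adjusted p 0.514 and its 95% interval -0.59 to -0.28.

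Tnni2 stood at -0.32 ± 0.21 with leucine against dairy, Tnnc2 at -0.25 ± 0.10, Tnnt3 at -0.18 ± 0.07 and Tpm1 at -0.07 ± 0.08. The arrays lay apart with leucine below dairy in 4 of the 5 fast genes, against 14.9% of all genes. Their median was -0.25, against 0 over all genes. After quantile normalization it was -0.07, with Tnnt3 at -0.01 and Tpm1 at -0.0029, while Myoz1 kept -0.35. It was -0.13 without dairy array 1 and -0.36 without dairy array 2.

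Among the slow genes Myoz2 stood at 0.98 in leucine against dairy, 1.97-fold higher, Tnnc1 at 0.51, Tnni1 at 0.36, Tnnt1 at 0.17 and Tpm3 at 0.07. Their median was 0.36, or 0.58 without leucine array 1 and 0.13 without leucine array 2. The arrays lay apart with leucine above dairy in 3 of the 5, Tnnc1, Tnni1 and Myoz2, against 13.4% of all genes. The SE of Tnnc1 was 2.06 when the spread included casein array 2 and 0.10 without it. When it was left out, Tnnc1 had an unadjusted p of 0.0163 and an adjusted limma p of 0.565, and Myoz2 at 0.98 ± 0.34 an adjusted p of 0.709.

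The slow and fast partners were set side by side as the slow minus the fast log2 signal of each array, with each gene taken relative to its median over the 6 arrays. The troponin C pair stood at 0.25 and 0.43 on the leucine arrays, -0.45 and -0.41 on the dairy arrays, and 0.55 and -5.43 on the casein arrays. The troponin I pair stood at 0.19 and 0.61 with leucine, -0.48 and -0.06 with dairy, and -0.10 and -4.24 with casein. The myozenin pair stood at 0.96 and 1.70 with leucine, -0.20 and 0.04 with dairy, and -0.18 and -3.35 with casein. In 4 of the 5 pairs both leucine arrays lay above both dairy arrays, with mean differences from 0.35 in the troponin T pair to 1.41 in the myozenin pair. The tropomyosin pair had a mean difference of 0.14, and leucine array 1 and dairy array 2 tied there. The pairs share arrays, so they are not independent, and no test was made of them. They also reuse the values of genes already counted as apart. No share over pairs of other genes was taken, here or below.

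Set against casein array 1 alone, the leucine means of the pairs differed by -0.21 for troponin C, -0.02 for troponin T, 0.20 for tropomyosin, 0.50 for troponin I and 1.51 for the myozenins. The dairy means differed by -0.98, -0.37, 0.06, -0.17 and 0.10 in the same order. Both leucine arrays were above casein array 1 in 3 pairs, and both dairy arrays in the tropomyosin pair only. The myozenin pair thus had the largest difference of leucine from dairy and from casein array 1 among the 5.

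**Figure D3:**
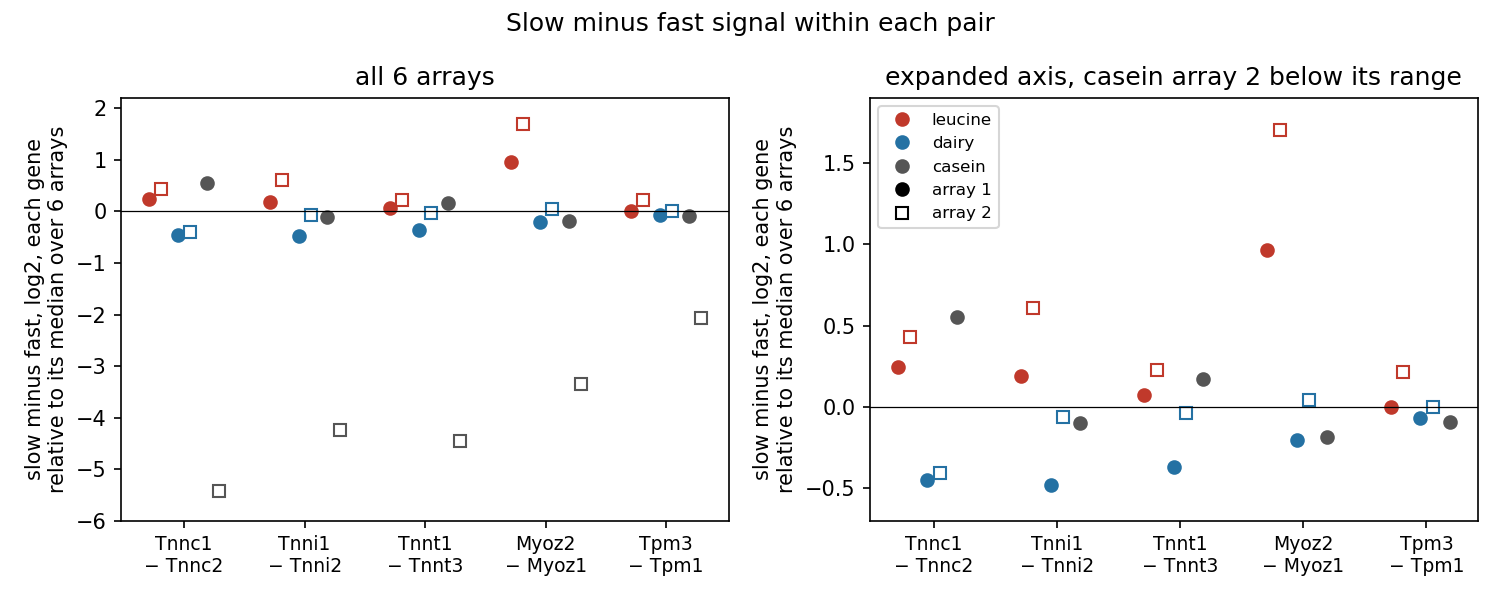
Slow minus fast log2 signal (vertical axis) of the 5 pairs on each array, with each gene relative to its median over the 6 arrays, shown for all arrays and on an expanded axis that leaves casein array 2 below its range. Circles are array 1 and squares array 2. Pairs of other genes were not examined. The leucine arrays lie above the dairy arrays in 4 of the 5 pairs, most in the myozenin pair, with a tie in the tropomyosin pair, and casein array 2 lies between -5.43 and -2.07.

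Other genes of slow fibres were low on casein array 2 too. Of 11 listed genes 10 were measured, and all 10 were lowest on that array, as were 22.1% of all genes. Their median was -2.71 relative to the median of each gene. Mb and Pln were only slightly lower there. Mb stood at 11.70, against 11.81 on dairy array 1, and Pln at 4.26, against 4.43 on casein array 1. In leucine against casein 10 of 10 were above 0, beside 49.1% of all genes, with a median of 1.75. In dairy against casein 10 of 10 were above 0, beside 51.2%, with a median of 1.26. In either, 0 passed the adjusted limma p. Without casein array 2 the medians were 0.28 and -0.09. Above 0 were then 6 and 4 of the 10, beside 47.4% and 47.9% of all genes. By the smallest p in leucine against casein, the genes named are Pln, Casq2, Atp2a2 and Myl3. Pln, which restrains the slow calcium pump, stood at 5.13 and 4.68 with leucine, 4.78 and 4.68 with dairy, and 4.43 and 4.26 with casein. Its log2 fold change against casein was 0.56 ± 0.18 with leucine, with an unadjusted p of 0.0297, and 0.38 ± 0.18 with dairy. These were 0.48, with an unadjusted p of 0.141, and 0.30 without casein array 2. Casq2, a calcium store protein, stood at 2.33 with leucine against casein, Atp2a2 at 1.71 and the light chain Myl3 at 2.36. They stood at 0.83, 0.51 and 0.73 when casein array 2 was left out.

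Of 12 other genes of fast fibres 9 were measured, and 7 of 9 were below 0 in leucine against casein, beside 50% of all genes. The median was -0.11, or -0.33 without casein array 2. In dairy against casein 9 of 9 were above 0, beside 51.2% of all genes, with a median of 0.15. Without casein array 2 that median was -0.02, with 4 above 0 and 5 below, beside 47.9% and 49.4% of all genes. Leucine was below dairy in 8 of 9, beside 49% of all genes, with a median of -0.27, and 0 passed the adjusted limma p. Mylk2, a kinase of the fast myosin light chain, stood at 10.52 and 10.34 with leucine, 11.35 and 10.86 with dairy, and 10.91 and 10.81 with casein. Its log2 fold change was -0.43 ± 0.19 against casein and -0.67 ± 0.19 against dairy. Pvalb, a calcium buffer of fast fibres, stood at -0.52 ± 0.36 against casein and the light chain Myl1 at -0.08 ± 0.06. With casein array 2 left out Mylk2 stood at -0.48, Pvalb at -0.64 and Myl1 at -0.09. Myh2, listed here because its fibres are fast, went with the slow genes, at 1.97 ± 1.13 or 0.32 without casein array 2.

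Among genes listed for the thin filament and Z-disc without regard to fibre type, 11 of 17 were measured, and 0 passed the adjusted limma p in any comparison. The smallest p belonged to Actc1, the cardiac alpha-actin, which stood at 9.19 and 9.59 with leucine, 7.52 and 8.31 with dairy, and 6.996 and 6.35 with casein. The diets did not overlap, a pattern not counted over all genes. Its log2 fold change against casein was 2.72 ± 0.38 with leucine, with an unadjusted p of 0.0014 and an adjusted p of 0.353, and 1.24 ± 0.38 with dairy. These were 2.40 and 0.92 without casein array 2. Leucine stood 1.48 ± 0.38 above dairy. Cfl2, which severs actin filaments, stood at 0.30 ± 0.11 with leucine against casein, Lmod2, which lengthens them, at 1.34 ± 0.65 and Actn2, the alpha-actinin of the Z-disc, at 0.89 ± 0.46. They stood at 0.44, 0.42 and 0.26 without casein array 2.

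Calcineurin and NFAT genes, which relay calcium signals to slow-fibre genes, had 10 of 11 measured and a median of 0.04 in leucine against casein. Nfatc4 was dim, with a mean level of 3.65 against 4.15 for the median gene. It stood at -0.26 ± 0.08 with leucine against casein, or -0.31 without casein array 2, and Nfatc3 at 0.44 ± 0.20, or 0.16 without it. The catalytic subunits Ppp3cb and Ppp3cc stood at 0.16 ± 0.10 and 0.49 ± 0.35. When that array was left out they stood at 0.27 and 0.92, with unadjusted p of 0.0343 and 0.04 and adjusted limma p of 0.341 and 0.353. Of 19 transcription regulators of fibre type 16 were measured, with a median of 0.05. Esrrg, a nuclear receptor of oxidative fibres, stood at 6.38 and 6.83 with leucine, 5.44 and 6.05 with dairy, and 5.89 and 5.25 with casein, with 1.04 ± 0.34 against casein and an unadjusted p of 0.0346. Its value without casein array 2 was 0.71, with an unadjusted p of 0.163. Hdac4, a deacetylase that holds back MEF2, stood at -0.49 ± 0.15, or -0.32 without that array. Six4 stood at 0.21 ± 0.10, or 0.20 without it, and Maf at -0.75 ± 0.43, or -0.14 without it. None of either list passed the adjusted limma p in any comparison.

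The genes nearest to the mean profile of the 5 fast genes, among 7243 genes above the median level, were Commd7 at a root mean square distance of 0.03, Ckm, the muscle creatine kinase, at 0.03, the pyruvate kinase gene Pkm at 0.03 and Cerk at 0.04. Ckm stood at 12.70 and 12.72 with leucine, 13.06 and 12.95 with dairy, and 13.00 and 12.82 with casein. Its leucine arrays were the lowest of the 6, as in 4 of the 5 fast genes, a pattern not counted over all genes. Ckm was chosen for nearness to the fast profile, so this likeness is no separate result. Commd7 and Cerk were dim, with mean levels of 4.62 and 5.36 against 4.15 for the median gene.

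Markers of other cells were read beside these results. Hepatocyte markers were highest on casein array 2 in 10 of 10, beside 21.5% of all genes, with a median of 2.42 relative to the median of each gene. The log2 of their summed signal was 7.02 and 10.30 with leucine, 8.78 and 7.26 with dairy, and 9.88 and 12.08 with casein. Adipocyte markers were highest on that array in 5 of 7, with summed signals of 7.76 and 7.64 with leucine, 8.82 and 7.85 with dairy, and 8.04 and 8.77 with casein. Their part in the low slow genes of casein array 2 was not tested. Of 7 cardiac markers 1, Myh6, lay above the median gene, and the defining markers Tnni3, Nppa and Nppb stood between 2.27 and 3.00 on all arrays. The log2 of the summed smooth muscle signal lay between 9.51 and 10.12 on all arrays.

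**Figure D4:**
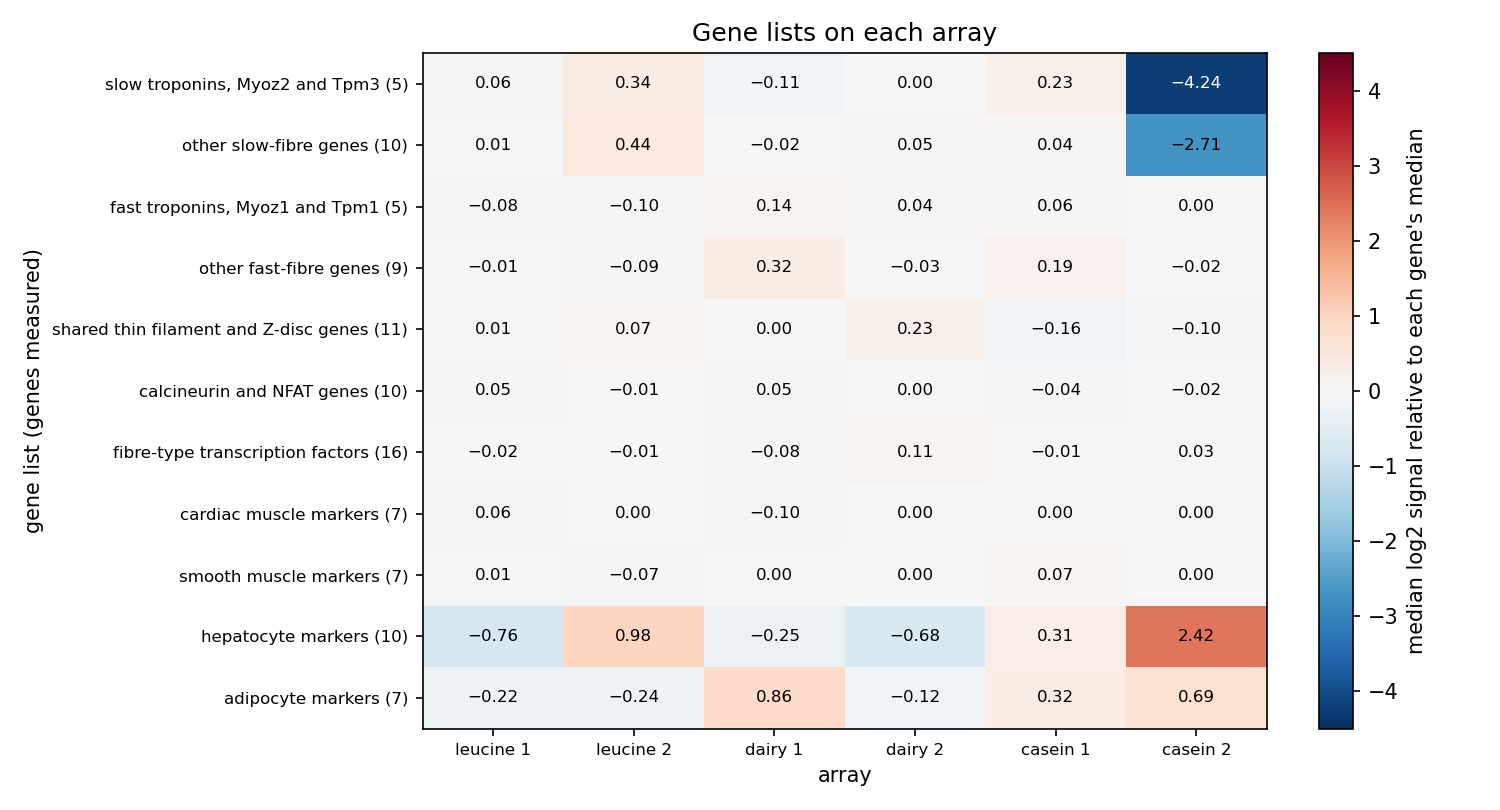
Median log2 signal of each gene list on each array, with each gene taken relative to its median over the 6 arrays. The number of genes measured stands in brackets, red is above and blue below that median. On casein array 2 the slow genes stand at -4.24, the other slow-fibre genes at -2.71 and the hepatocyte markers at 2.42.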

How the data were processed

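Muscle RNA of 6 arrays was analysed from the deposited series table. Its values are log2 signals, 1 per array and transcript cluster, which the authors made, according to the submitters' processing notes, with Affymetrix Expression Console. Its version, the background correction, normalization and summarization are not given in the sources used here, and scanner files were not analysed here. The sorted values of the arrays differed by up to 0.22, so the columns were not identical in distribution.

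Of 29214 rows, 15633 had a platform gene entry and 15310 had 1 gene. Symbols were updated through the gene identifier for 15279, through a sequence accession for 6 and kept for 25. The row with the highest mean stood for each of 14506 genes, with no filter on dim genes. Groups were taken from the sample titles.

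Diets were compared with limma 3.58.1 in R 4.3.3, in a single model of diet over all 6 arrays with empirical Bayes variances, and Benjamini-Hochberg adjusted p-values, taken over all genes, were read at a threshold of 0.05. With 2 arrays per diet, their number limits the precision. The procedure was tested on simulated data with independent normal errors. The simulated arrays had equal spread, so the test does not cover an array that stands apart like casein array 2. Tables and plots used Python 3.11.15, and promoter windows came from RefSeq, build GRCr8.

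The members, the gene lists and the tests were chosen with earlier results of these data known. Named are the 10 members, up to 4 genes per list with the smallest p in leucine against casein, and the 8 and 4 genes nearest to the slow and fast profiles. Alternatives covered normalization, a filter, row choice, the features tested, variance moderation, a replicate block, the arrays fitted and leaving out each array.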

Additional observations from a re-analysis of the deposited data

How the results depend on the processing

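There were 2 arrays per diet and no background readings. None of the small differences of the bright fast genes passed the adjusted limma p, and the spread of the slow genes was set by casein array 2. The count of genes past an adjusted limma p of 0.05 was 0 in all 3 comparisons under every alternative other than leaving out an array. It ranged from 0 to 1 for leucine against casein and for dairy against casein when an array was left out, the 1 being Il6 when casein array 2 alone stood for casein, a gene named after its value was seen. By unadjusted p under 0.05 leucine against casein had 1394 genes, dairy against casein 696 and leucine against dairy 827.

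Quantile normalization gave a fast median of -0.040 for dairy against casein and -0.065 for leucine against dairy, and turned Tnnt3 to -0.038 and Myoz1 to -0.040 in dairy against casein. Median centring turned Tnni2 to 0.030 and Tpm1 to 0.019 there. The cause was not tested.

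Leaving out each array in turn gave slow medians from -0.048 to 4.52 for leucine against casein and from -0.35 to 4.17 for dairy against casein, and fast medians from -0.36 to -0.13 for leucine against dairy. For leucine against casein it gave -0.34 to 5.73 for Tnnc1, -0.048 to 4.52 for Tnni1 and -0.18 to 4.54 for Tnnt1. For dairy against casein it gave -0.86 to 5.22 for Tnnc1, -0.40 to 4.17 for Tnni1, -0.35 to 4.37 for Tnnt1, -0.033 to 2.07 for Tpm3, -0.23 to 0.20 for Tnni2 and -0.092 to 0.034 for Tpm1. In each slow gene the lowest value came without casein array 2. A lone array left in a diet was assumed to vary like the other diets.

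Whether replicate numbers pair the arrays is not stated in the labels. The differences between arrays 1 and 2 were correlated across genes between diets. The correlations were 0.18 for leucine and casein, 0.09 for dairy and casein and 0.05 for leucine and dairy. They cannot show whether arrays of the same number shared a batch, so pairing was not settled. With the replicate block 0 genes passed in each comparison; in this balanced design the block can change the SE and not the fold change. Among the alternatives that kept every array, only the normalizations could alter a fold change of these genes, so the others bear on p alone.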

Other observations

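Myh3, the embryonic myosin heavy chain found in regenerating fibres, stood at 4.67 and 6.93 on the leucine arrays, 4.70 and 4.57 on the dairy arrays, and 4.67 and 4.37 on the casein arrays. Leucine array 2 was high, and the other 5 arrays lay close together. On leucine array 2 3 of the 5 slow genes were highest too, Tnni1, Tpm3 and Myoz2, the last at 10.31. So were 5 of the 10 other slow-fibre genes, beside 13.8% of all genes. Myf5, a factor of satellite cells, stood at 4.24 and 4.60 with leucine, 4.33 and 4.45 with dairy, and 4.22 and 3.87 with casein. Lmod1, a leiomodin of smooth muscle, stood at 4.94 and 4.75 with leucine, 7.38 and 4.91 with dairy, and 5.18 and 4.64 with casein, so dairy array 1 was high. These genes were chosen after their values were seen.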
